A study of Mus musculus with 2 samples.

Results

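The guides with the most reads in uninduced macrophages were examined: 942 of the 79633 guides of a pooled CRISPR knockout library, all those with 3500 or more reads in the input library. The cells were mouse bone marrow derived macrophages from R26-Cas9-KI animals, in which Cas9 is expressed from a knock-in at the Rosa26 locus. They had been differentiated in M-CSF from L929 supernatant, immortalised with the J2 retrovirus, and engineered to express the Tet3G transactivator and a doxycycline-inducible N-terminal gasdermin D fragment tagged with tagBFP (NT-GSDMD-tagBFP). Both populations carried all of these elements and the Brie lentiviral library, which confers blasticidin resistance. The uninduced input received no doxycycline. The survivors received 0.5 μg/ml doxycycline for 16 h and were then sorted for BFP signal and against propidium iodide staining, which selects cells that made the fragment and kept an intact membrane. Each population was 1 library, so no value below has a replicate error and no p-value is given. The labels do not say whether the engineered cells were 1 clone or what was combined in these libraries. Read counts of guides carry no expression values, so the macrophage label was not checked against markers.

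Gasdermin D executes pyroptosis: inflammatory caspases cut it, and the freed N-terminal fragment inserts into the plasma membrane and forms pores. In a pooled knockout screen each cell carries a guide that directs Cas9 to a target, and the reads of that guide in genomic DNA stand for the cells that carry it. Guides gain cells during growth when their target restrains proliferation or survival, and lose cells when the target is needed. A guide can also be abundant because it was abundant in the plasmid pool or the virus. The plasmid pool was not analysed here, so high input reads are described as abundance and not as expansion. Each guide has 20 bases that pair with the target, written from the 5′ end (position 1) to the end next to the NGG motif that Cas9 needs (position 20).

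The members with the most input reads had sequences of different composition. They are shown with capitals at positions 1, 2, 3 and 16, where the base shares of members lay farthest from those of the whole library.
Most input reads: GGAacagtccatgtgAattg
Next by input reads: CCAaaactgtctgtaCacag
The third by input reads: GAAgtcacagcacatGacgg
The fourth by input reads: ATAgagtcattgtccAtagg
The fifth by input reads: GGActcaggccgtccCcgag

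These 5 guides took different courses in the survivors. The guide beginning GGA with the most input reads had 9761 (95% exact Poisson interval 9568 to 9957) and 2618 in the survivors (2519 to 2720). Scaled to a library total of 1000000 reads (RPM), it stood at 113 in the input and 161 in the survivors, rank 1 and rank 17 among all guides. The guide CCAaaactgtctgtaCacag had 9536 input and 1796 survivor reads, 111 and 110 RPM, and so kept its share. The guide GAAgtcacagcacatGacgg had 9315 input and 753 survivor reads, at 108 input RPM and 46.3 survivor RPM, a ratio of 0.429 (95% exact conditional binomial interval 0.397 to 0.462). It thus held rank 3 in the input and rank 2940 in the survivors. The guide ATAgagtcattgtccAtagg had 8822 and 1921 reads, a ratio of RPM of 1.15 (1.10 to 1.21). The guide GGActcaggccgtccCcgag had 8293 and 2586 reads, a ratio of 1.65 (1.58 to 1.73), and its GC content of 75% was the highest of the 5. These intervals cover counting error only: the reads came from PCR without molecular identifiers and do not each stand for a molecule.

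Members were chosen by their input reads, so these values are a description. Members had from 3500 to 9761 input reads with a median of 3921, which is 40.6 to 113 RPM with a median of 45.5. The lowest member stood 3.73-fold above the library median of 939 reads, and the highest 10.4-fold. Most members lay close to the threshold: 526 had 3500 to 3999 reads, 213 had 4000 to 4499, 104 had 4500 to 4999, and 99 had 5000 or more. The 11 members from 7000 reads were the sparse upper end, and the 10 highest held 2.13% of all member reads. No guide stood far apart: the input abundance of the highest member was 2.79 times that of the lowest. Members made up 1.18% of guides and 4.55% of the 86266754 input reads.

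The threshold separated guides of nearly equal abundance. Just inside it were CAActttaccatccaAacgg with 3500 input and 674 survivor reads, and CCCttggcctagagtCagcg with 3501 and 1132. Just outside were ATGccaatacaccttCactg with 3499 and 1858, and GCTggtagctaggctAtgga with 3499 and 803. The 95% Poisson interval of the input count reached below 3500 in 158 members, and it reached 3500 in 172 guides that were no members. Membership near the threshold is therefore within counting error, while the 99 members from 5000 reads are clear of it.

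The lead of the members was still present among the pyroptosis survivors. The comparison guides were the 15225 with 1500 to 2500 input reads. In the survivors, which held 16269091 reads, members had a median of 45.6 RPM (95% order-statistic interval over guides 44.0 to 47.6, n = 942 guides). The comparison guides had a median of 18.5 RPM (18.3 to 18.7, n = 15225 guides) and all guides 7.74. The lead, as the ratio of member to comparison medians, was 2.12 in the input, where the rule fixes it, and 2.47 in the survivors. With the ends of both medians' intervals the survivor lead lay from 2.35 to 2.61. These intervals describe the spread over guides within 1 library and are not an error between cultures. Members took 4.89% of the survivor reads, against 4.55% of the input reads.

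How far the lead widened depended on the summary. With means, members stood at 48.3 RPM in the input and 51.9 in the survivors, and the comparison guides at 21.9 and 22.1, so the lead was 2.20 and 2.35. In proportion to the mean, the survivor median of the comparison guides lay further below it than that of the members did. When comparison guides were weighted to the first base and GC count of the members, their survivor median was 19.1 RPM and the lead was 2.39. The lead does not change with a scaling factor for a whole library, because it is a ratio within each library.

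No member had a survivor count of 0. All 942 had survivor reads; 0 of 942 allows a share of up to 0.318% by the rule of 3 counts, and of up to 0.391% by the exact binomial interval. Of the comparison guides 59 had no survivor reads, or 0.388% (95% exact binomial interval 0.295 to 0.500%), and of the guides under 1500 input reads 10514, or 17.5%. The upper limit of 0.391% for members includes the 0.388% of the comparison guides, so these groups were not told apart by this count. All 10573 guides without survivor reads had 2500 or fewer input reads. A count of 0 in the survivors allowed up to 0.184 RPM. The lowest member, with 2 survivor reads or 0.123 RPM, lay under that limit.

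Within the members, survivor levels were spread widely and overlapped those of the comparison guides. Member survivor reads ran from 2 to 4070 with a median of 742, or 0.123 to 250 RPM, and 15 members had fewer than 100 reads. From the 25th to the 75th percentile the members lay between 28.8 and 67.0 RPM, where comparison guides lay between 10.4 and 29.9. The groups overlapped over most of their range, up to the highest comparison guide at 186 RPM. In all, 844 members, or 89.6% (95% exact binomial interval 87.5 to 91.5%), were above the comparison median in the survivors, where 23.8% of all guides were. Above the comparison 95th percentile of 52.7 RPM were 381 members, or 40.4%. At or below its 25th percentile were 35 members, or 3.72%, and 19 members were under the median of all guides. In turn 1254 comparison guides, or 8.24%, were above the member median. The coefficient of variation of RPM over members was 0.180 in the input, where the threshold limits it, and 0.612 in the survivors. It was 0.734 in the survivors for the comparison guides.

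Members with more input reads also had higher survivor levels. Median survivor RPM was 41.5 for members with 3500 to 3999 input reads (95% order-statistic interval 38.8 to 43.1), 48.9 for 4000 to 4499 (43.8 to 52.9) and 58.0 for 4500 to 4999 (47.6 to 63.6). It was 64.5 for 5000 to 5999 (50.0 to 81.9), 68.7 for 6000 to 6999 (45.2 to 103, 15 guides) and 111 for the 11 members from 7000 (48.8 to 159). From 4000 reads upward, neighbouring bands did not differ beyond their intervals. Just below the members, guides with 3000 to 3499 input reads had a median of 35.6 RPM (33.6 to 36.9) and those with 2501 to 2999 had 28.5 (27.5 to 29.4), so the members continued the order of the guides below them. The median guide's ratio of survivor to input RPM was 0.690 at 500 to 999 input reads, 0.850 in the comparison guides and 0.957 to 1.15 in the bands of members. With the RPM of all guides in a band pooled, the ratios lay closer together, at 0.972, 1.01 and 0.979 to 1.12. As a group, the guides with 500 to 999 input reads thus nearly kept their share. Across the 942 members Spearman's rho of input and survivor reads was 0.248 and Pearson's r of their log2 values 0.248. These are correlations across guides of the same 2 libraries over a range of input reads cut at 3500. Of the 100 members with the most input reads, 30 were among the 100 members with the most survivor reads.

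The most abundant guides of the survivors were mostly not the most abundant of the input. The 946 guides with at least 1062 survivor reads (65.3 RPM), as many as there are members apart from ties, included 253 members, which is 26.9% of the members (95% exact binomial interval 24.1 to 29.8%) and 26.7% of the 946. That rule takes 1.19% of all guides. A further 318 of the 946 had 2501 to 3499 input reads, 310 were comparison guides and 65 had fewer than 1500. These are 8.99% of 3537 guides, 2.04% of 15225 and 0.108% of 59929, so the share reaching the set fell with input reads. The share of members in this set was 19.2% at 3500 to 3999 input reads (15.9 to 22.8%), 31.5% at 4000 to 4999 (26.5 to 37.0%) and 52.5% from 5000 reads (42.2 to 62.7%). The guide with the most survivor reads of all, named after its values were seen, was AGAtggggccttcacGacca. It had 5165 survivor reads and 2945 input reads, below the threshold of the members.

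The members at either end of the survivors show the range behind the median, with the same 4 positions in capitals.
Most survivor reads: AGCtgtgtcccaaatCtgca
Next by survivor reads: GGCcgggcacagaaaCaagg
The third by survivor reads: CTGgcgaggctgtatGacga
Fewest survivor reads: CTGtcaagaagtgtcCcgtg
Next fewest: TTCtctgtaaagctgGgcaa
The third fewest: GTGaaacctgggcccAactg

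The 3 highest members had similar ratios of survivors to input. The guide AGCtgtgtcccaaatCtgca had 5386 input and 4070 survivor reads, rank 63 and rank 2, and its ratio of survivor to input RPM was 4.01 (95% exact conditional binomial interval 3.85 to 4.17). For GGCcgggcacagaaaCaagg, with 3866 and 3142 reads, the ratio was 4.31 (4.11 to 4.52), and for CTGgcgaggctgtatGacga, with 4087 and 3107 reads, it was 4.03 (3.85 to 4.22). The lowest member stood alone. The guide CTGtcaagaagtgtcCcgtg had 3774 input reads and 2 survivor reads, a ratio of 0.00281 (0.00034 to 0.0102), and it was the single member with 10 or fewer survivor reads. The next were TTCtctgtaaagctgGgcaa with 3525 and 28 reads (ratio 0.0421, 0.0279 to 0.0610) and GTGaaacctgggcccAactg with 3888 and 39 (ratio 0.0532, 0.0378 to 0.0728). Their genes were not paired with the guides here.

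Past 2-fold on the log2(RPM + 1) scale, centred on the median guide, 191 members (20.3%) were higher in the survivors and 79 (8.39%) lower. Of the 76767 guides with 30 or more input reads 20.1% were higher and 23.6% lower. Among the comparison guides 19.5% were higher and 15.5% lower. The fold holds the input reads that chose the members, so these counts are given as a description and nothing is read from them. The split also moved with the scaling. With edgeR's TMM factors, under which the median of all guides was -0.23, 111 members were higher and 108 lower. Of the 76767 guides 14.4% were then higher and 29.2% lower. With DESeq2's size factors, under which the median was -0.18, 135 members were higher and 102 lower. Of the 76767 guides 15.6% were then higher and 28.3% lower.

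Sequence was not used by the rule, and the members differed from the library in base composition. Mean GC content was 54.7% (SD 9.45, n = 942 guides) in members, 52.5% (SD 9.72) in comparison guides and 50.4% (SD 10.2) in all guides. Guides with 60% GC or more made up 38.0% of members (95% exact binomial interval 34.9 to 41.2%), 29.4% of comparison guides and 23.7% of the library. Guides with 40% or less made up 10.1%, 14.8% and 21.7%. Read the other way, 1.89% of the library guides with 60% GC or more were members (1.70 to 2.10%) and 0.551% of those with 40% or less (0.446 to 0.673%). In each of these features the comparison guides lay between the members and the library, which includes both. Mean GC did not rise further at the top: it was 54.7% from 3000 input reads and 54.2% from 4000.

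Single positions at the 5′ end and position 16 departed most. At position 2, A stood in 15.6% of members (13.3 to 18.1%), 21.8% of comparison guides and 26.3% of the library, and G in 35.7%, 31.4% and 27.7%. At position 16, C stood in 46.9% of members (43.7 to 50.2%), 41.8% and 37.1%. At position 1, G stood in 18.5% (16.0 to 21.1%), 23.9% and 28.1%, and at position 3, C in 28.2% (25.4 to 31.2%), 22.7% and 19.6%. These combinations are the 5 with the largest gap between members and library out of 80 base and position combinations, so their gaps are the extremes of that set.

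The ends of the guides and their base runs differed as well. The guides that ended in TG were 22.5% of members (19.9 to 25.3%), 17.8% of comparison guides and 15.8% of the library, while those ending in CG, GG or AG were within 2 percentage points of the library. Of the starts of 2 bases, GA lay furthest below the library, with 2.76% of members, 5.69% of comparison guides and 7.91% of the library, followed by AA with 2.12%, 3.78% and 6.58% and GT with 1.49%, 3.26% and 5.34%. A run of AAAA stood in 15 members, or 1.59% (0.894 to 2.61%), against 3.47% and 6.41%. The run TTTT, which ends transcription by the polymerase that makes guide RNAs, was in 0 of 942 members, which allows up to 0.318% by the rule of 3 counts and 0.391% by the exact interval, and in 24 guides of the library, or 0.0301%. That share is below what 942 guides can show. Runs of CCCC stood in 5.31%, 5.36% and 4.27%, and runs of GGGG in 2.34%, 2.44% and 2.46%. No CpG was present in 35.6% of members, 37.4% of comparison guides and 39.9% of the library.

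The first base also went with the survivor level of the members, while the lead over comparison guides of the same first base stayed similar. Median survivor RPM was 35.3 for the 174 members that started with G (95% order-statistic interval 31.1 to 40.3) and 41.2 for the 247 that started with A (36.8 to 45.1). It was 50.5 for the 271 that started with C (47.0 to 56.2) and 54.7 for the 250 that started with T (47.8 to 59.9). The median input reads of these members were 3887.5, 3878, 3933 and 3947.5. Comparison guides followed with G lowest and T highest, at 14.1 RPM for G, 18.3 for A, 21.0 for C and 21.7 for T. The survivor lead within a first base was 2.50 for G, 2.26 for A, 2.40 for C and 2.52 for T. From the ends of the medians' intervals it ranged from 1.95 to 2.54 for A and from 2.15 to 2.94 for G, so the leads overlapped. By GC content the survivor lead was 2.48 at 40% or less, 2.39 at 45 to 55% and 2.61 at 60% or more, again with overlapping ranges.

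Overlapping guides show whether neighbouring target sites were abundant together. Guides counted as overlapping had 14 or more bases in common where the end of one meets the end of the other, on either strand, and their shared target was not checked against a genome. No 2 members overlapped, and 9 members overlapped another guide of the library in 10 pairs. Among the 15225 comparison guides, a far larger set, 21 pairs overlapped, and the library held 917. Members were 1.18% of guides, so 0 pairs of 2 members is a likely count and nothing is read from it. The 9 members are 0.955% of members (95% exact binomial interval 0.438 to 1.81%), against 1.20% of comparison guides and 1.95% of the library. The pairs with the longest shared stretch are shown, with the shared bases in capitals and the member first.
Opposite strand, member: tTGTTATCCATAGTTCCTCT
Its partner: cAGAGGAACTATGGATAACA
Same strand, member: cgcCTTCACGCTGAGCGTCA
Its partner: CTTCACGCTGAGCGTCAtgg
Same strand, member: ggcTATGGCTGCTGTGGCTG
Its partner: TATGGCTGCTGTGGCTGtgg
Same strand, member: tctTCATCTTCTTCTACGTG
Its partner: TCATCTTCTTCTACGTGagg

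The partners ranged from well represented to nearly absent. The first pair shared 19 bases on opposite strands, with 4027 input reads in the member and 2212 in the partner, and 733 and 317 survivor reads. The second shared 17 bases, with 4168 and 2445 input reads and 1980 and 483 survivor reads. Both partners were thus far above the library median of 939. The third pair, displaced by the same 3 bases, had 3810 and 241 input reads and 351 and 1 survivor reads, and the fourth had 4189 and 1345 input reads and 1061 and 127 survivor reads. A further guide that shared 16 bases with this last member on the opposite strand had 25 input reads and no survivor reads. Over the 10 partners input reads ran from 25 to 2445 with a median of 714.5 (95% order-statistic interval 241 to 2212), and 4 of 10 were above the library median. Partners of comparison guides, leaving out those that were comparison guides themselves, had a median of 784.5 (690 to 888, n = 154 guides). Partners of members could be comparison guides, so these medians come from different ranges of input reads. For that reason, and with 10 guides, no difference or likeness is read from them.

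Near-identical guides likewise held no pair of members, where the larger set of comparison guides held 52 and the library 1943. With members at 1.18% of guides, 0 is a likely count, so nothing is read from it. With up to 2 substitutions at the same 20 positions, 22 members had a near-identical guide, or 2.34% (1.47 to 3.51%), against 2.62% of comparison guides and 3.73% of the library. Of the 26 pairs, 13 differed by 1 substitution. All 13 differed at positions 9 to 20. That range was taken from these pairs, so nothing is read from their all lying in it. It held 72.0% of the 944 such pairs in the library. Of these pairs 5 are shown to give the range of outcomes, chosen after their values were seen, with the differing base in capitals and the member first.
Change T14C, member: acttctgtctgggTgcagtg
Its partner: acttctgtctgggCgcagtg
Change G14A, member: tgtcggaatctacGcgaccg
Its partner: tgtcggaatctacAcgaccg
Change A9G, member: actcagttAattcacagacc
Its partner: actcagttGattcacagacc
Change C9T, member: tgaccacaCcccacatcctg
Its partner: tgaccacaTcccacatcctg
Change G19A, member: tgacttcacctgcaaccaGg
Its partner: tgacttcacctgcaaccaAg

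Guides that differed by a single base ranged from similar to very different abundance. In each change the base of the member comes first, then its position counted from the 5′ end, then the base of the partner. The pair with T14C had 3624 and 1474 input reads and 367 and 233 survivor reads. The pair with G14A had 4412 and 551 input reads and 1416 and 122 survivor reads, and that with A9G had 4180 and 397 input reads and 790 and 0 survivor reads. In these pairs the member led in both libraries. The order was the other way in the survivors for C9T, where the input held 3867 and 2008 reads and the survivors 990 and 1343. It was also turned for G19A, with 4056 and 2970 input reads and 512 and 798 survivor reads. Over the 13 pairs the member had 1.35 to 14.9 times the input reads of its partner, with a median of 2.46. It was higher in the survivors in 11 of 13. Of all members 89.6% were above the comparison median in the survivors, so nothing particular to near-identical pairs is read from that count. The members were chosen for high input reads, so the direction in the input is set by the rule. The size of the input gap depends on that choice too, and no effect of the single base is read from it.

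The partners at 1 substitution were themselves fairly abundant. Their median was 1474 input reads (95% order-statistic interval 551 to 2129, n = 13 guides), and 10 of 13 were above the library median. The partners of comparison guides at 1 substitution had a median of 857 (720 to 911, n = 177 guides), which lies within the interval of the member partners. Partners that were themselves comparison guides are left out of this median and of the comparison medians that follow. With up to 2 substitutions the medians were 1405.5 (707 to 1789, n = 26 guides) and 855 (765 to 899, n = 363 guides). The survivor medians of these partners were 6.39 RPM (4.24 to 13.4) and 7.25 RPM (5.59 to 9.04). Partners of members could be comparison guides. The medians of member partners and comparison partners therefore come from different ranges of input reads, and no difference or likeness is read from them. How reads with a mismatch were counted is not stated in the labels or headers, and its part in the reads of near-identical guides was not tested.

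A place in the genome could be given for 9 members. RefSeq sequences from 250 bases before to 50 after gene starts (GRCm38.p6) were searched on both strands for each guide followed by NGG, and 637 of the 79633 guides matched, of which 1.41% were members. The match gives a position and the genes whose RefSeq span covers it, and it does not show which gene a guide was designed against or whether it has other sites. Of these members 8 are shown, with capitals at positions 1, 2, 3 and 16.
Coa8, chr12:111713379-111713398, plus strand: TGAgcgccctacggaTcaca
Pnma5, chrX:73035979-73035998, minus strand: CCAggcagaggattcTaggg
Fam71e1, chr7:44496716-44496735, minus strand: CTCacctgctccgccCcgag
Htr1b, chr9:81632340-81632359, plus strand: ATAcaccgtagcgatTacaa
Vmn1r125, chr7:21272170-21272189, plus strand: GGCctatccatgtctGctca
Hoxd8, chr2:74705817-74705836, plus strand: GGActacttccacgcCggcg
Ppil6, chr10:41490515-41490534, plus strand: AGCccccagcatgtcAcgtg
Cyp24a1, chr2:170496194-170496213, plus strand: TTCgttgcgatggtcCcgat

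The genes covering these sites belonged to unrelated families. The guide within Coa8, an assembly factor of cytochrome c oxidase, had 3655 input and 1850 survivor reads, 42.4 and 114 RPM, the highest survivor level of the 8. It lies upstream of a start of Bag5, a co-chaperone gene on the other strand. The guide within Pnma5, of the paraneoplastic Ma antigen family, had 4299 and 1419 reads, and that within Fam71e1, upstream of a start of Emc10 of the endoplasmic reticulum membrane complex, had 5236 and 1169. These 3 were higher in RPM in the survivors than in the input, as were, slightly, the guides at Vmn1r125 and Hoxd8 below. Of all members 48.4% were above their own input RPM, so nothing is read from this.

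The other 5 sites gave levels near or below the input. The guide within Htr1b, a serotonin receptor gene, had 4835 input and 871 survivor reads, 56.0 and 53.5 RPM, and an annotated long non-coding RNA, D430036J16Rik, covers the same bases. The guide at the start of Vmn1r125, a vomeronasal receptor gene, had 4446 and 860 reads, 51.5 and 52.9 RPM, and that within Hoxd8, a homeobox transcription factor gene also covered by the long non-coding RNA Gm38462, had 3645 and 700, 42.3 and 43.0 RPM. These 3 guides kept their level. The guide within Ppil6, of the cyclophilin-like family and upstream of a start of the sphingomyelinase gene Smpd2, had 4877 and 489 reads, 56.5 and 30.1 RPM. The guide within Cyp24a1, which encodes the enzyme that inactivates vitamin D and lies beside a start of the prefoldin gene Pfdn4, had 3678 and 341, 42.6 and 21.0 RPM. The survivor levels of these last 2 guides were thus lower than their input levels.

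At 3 of the genes above, other guides of the library were placed too. None was a member, so their lower input reads are set by the rule. At Htr1b the guide CTAcacggtctactcCacgg (chr9:81631925-81631944, minus strand) had 1573 input reads and 196 survivor reads, and TCTgtttcaaaatccGagag (chr9:81631838-81631857, plus strand) had 636 and 24, against 4835 and 871 in the member. At Hoxd8 a second guide, AAAatgacagtcgtaGtaag (chr2:74705651-74705670, minus strand), had 209 input and 5 survivor reads, and at Vmn1r125 the guide TAAatccatgaaaacCactg (chr7:21272193-21272212, plus strand) had 7 and 0. That none of these 4 guides at the 3 genes was a member is likely, as 1.41% of the 637 matched guides were members. Vomeronasal receptor genes have close relatives, and further sites of their guides outside the matched windows were not looked for.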

How the data were processed

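The authors deposited raw whole-number read counts per 20-base guide barcode for 2 libraries, with no normalization, per the file headers. Per the labels' protocols, barcodes were amplified by PCR from genomic DNA and sequenced on an Illumina instrument. The tool that counted the barcodes, and how it treated mismatches, is not stated there. Counts were joined by barcode, scaled to 1000000 reads per library (RPM), and members and comparison guides were taken by input reads. Members, features and alternatives were chosen with earlier results of these data known. Log2 fold changes used a pseudocount of 1 RPM, at least 30 input reads and centring on the median. Shares have exact Clopper-Pearson intervals and medians exact binomial order-statistic intervals, at 95%, over guides. Guides named were the 5 members with the most input reads, the 3 with the most and the 3 with the fewest survivor reads, and the 2 nearest to the threshold on either side. The pairs shown and the guides placed in RefSeq windows were chosen afterwards, and 1 placed member is not reported here. The design allowed for a genome and a list of growth-restraining genes, and neither was used here. Functions were tested on simulated data. Python 3.11.15, numpy 2.4.6, pandas 2.3.3, scipy 1.17.1, R 4.3.3, edgeR 4.0.16 (TMM factors) and DESeq2 1.42.0 (size factors) were used.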

Additional observations from a re-analysis of the deposited data

How the results depend on the processing

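No paired analysis was possible because there was 1 library per group, which also left no replicate to omit. Of 48 alternatives, 29 gave a value inside the 95% interval of the reported value, or a count that differed by at most 1.5 times. Among these 29 are the leads under TMM and DESeq2 factors, which could not move because such factors cancel within a library. From 4000 reads there were 416 members, with a median of 4477.5 input reads, 53.8 survivor RPM and a survivor lead of 2.91. From 3000 there were 2043, with 3444 reads, 40.1 RPM, a lead of 2.17 and 32.6% among the top survivors. The lead was 3.44 over guides with 1000 to 2000 input reads and 1.89 over 2000 to 3000. These move by construction, as each changes which guides are compared. With means, over the same guides, the lead was 2.35, and the cause was not tested. The survivor lead divided by the input lead was 1.16 and moved to 1.07 with means, and in the alternatives run it stayed above 1. The count of members past 2-fold higher, 191, moved to 110 with a pseudocount of 5 RPM and to 111 with TMM factors. Under the TMM factors the share of all guides past 2-fold higher also fell, from 20.1% to 14.4%. Members with an overlapping guide numbered 40 from 12 shared bases and 5 from 16, and members with a near-identical guide 13 with up to 1 substitution and 38 with up to 3. No pair of 2 members appeared in any of these settings. Depth limits membership at the threshold, where 158 members and 172 guides below it were within counting error of 3500 reads.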
